A study of Mus musculus with 2 samples.

Results

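The nuclear-encoded genes of the mitochondrial respiratory chain were followed through 4 flow-sorted gates of single mouse bone marrow cells. The list was made by symbol and held 86 protein-coding genes of the 53272 genes that could be read from the count tables. It took the Nduf subunits of complex I, Sdha to Sdhd of complex II, the Uqcr genes and Cyc1 of complex III, Cycs, the numbered Cox subunit genes of complex IV and the Atp5 genes of ATP synthase. The cells came from the bone marrow of C57BL/6 mice aged 8 weeks that carried the Fucci reporter, in a study on quiescence of blood stem cells. This reporter tags a piece of geminin with the green protein mAG, which accumulates in S, G2 and M phase, and a piece of Cdt1 with the orange protein mKO2, which accumulates in G0 and G1. The gates were mAG+, mKO2neg, mKO2low and mKO2high, with 48 cells each. One library held the mAG+ and mKO2neg cells and the other the mKO2low and mKO2high cells. No treatment, animal number or sort for surface markers was stated in the sources used here, so each gate is 1 sample, no value below has a replicate check, and no test between gates was possible.

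The respiratory chain passes electrons from NADH through complex I, or from succinate through complex II, to ubiquinone, then through complex III and the small carrier cytochrome c to complex IV, which reduces oxygen. Complexes I, III and IV pump protons across the inner mitochondrial membrane, and ATP synthase, complex V, uses the gradient to make ATP. Most subunits are encoded in the nucleus and imported, while a few core subunits of complexes I, III, IV and V are encoded in mitochondrial DNA. Quiescent blood stem cells are known for relying largely on glycolysis, and oxidative phosphorylation is known to be engaged more as they enter the cycle and differentiate.

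Promoters of 6 of these genes are shown because factors such as NRF1 (nuclear respiratory factor 1, encoded by Nrf1), the ETS factor GABP, YY1 and the estrogen-related receptors are known regulators of respiratory chain genes, and because Cox8a and Cox8b pair an abundant gene with an isoform that had no count. Cox8a was the most abundant listed gene per kilobase in these cells and Cox8b, its heart and muscle isoform, had no count. Cox6a1, Uqcr11 and Cycs are a complex IV subunit, a complex III subunit and cytochrome c, and each had an NRF1 match. Uqcr11 had 366 CPM (counts per 1000000 of the gate total) in mAG+ and 324 in mKO2neg, against 416 in mKO2low and 293 in mKO2high. Ndufs6, a complex I subunit, had one of the highest mKO2low to mKO2high ratios of the list. Each window runs from 250 bases before to 50 bases after the RefSeq gene start on GRCm38.p6, 5′ to 3′ on the gene's strand, and all 6 genes lie on the minus strand. The windows are chr19:7217567-7217866 for Cox8a, chr7:140900397-140900696 for Cox8b, chr5:115348909-115349208 for Cox6a1, chr6:50566520-50566819 for Cycs, chr10:80406772-80407071 for Uqcr11 and chr13:73328433-73328732 for Ndufs6. Capitals mark matches, on either strand, to CGCATGCG (NRF1), CCGGAAGT (ETS), AAGATGGC (YY1) or AAGGTCA (estrogen-related receptors).
Cox8a: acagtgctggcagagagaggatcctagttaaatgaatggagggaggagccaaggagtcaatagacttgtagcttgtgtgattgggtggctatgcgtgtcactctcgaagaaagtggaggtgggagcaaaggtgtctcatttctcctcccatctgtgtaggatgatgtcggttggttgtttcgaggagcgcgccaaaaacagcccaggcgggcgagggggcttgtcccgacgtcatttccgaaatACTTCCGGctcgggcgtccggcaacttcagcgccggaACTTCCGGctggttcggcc
Cox8b: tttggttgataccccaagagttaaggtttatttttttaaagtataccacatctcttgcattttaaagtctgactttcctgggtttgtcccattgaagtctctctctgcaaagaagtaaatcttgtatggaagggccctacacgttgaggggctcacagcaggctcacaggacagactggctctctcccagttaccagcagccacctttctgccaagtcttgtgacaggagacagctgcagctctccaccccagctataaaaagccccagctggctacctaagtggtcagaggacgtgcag
Cox6a1: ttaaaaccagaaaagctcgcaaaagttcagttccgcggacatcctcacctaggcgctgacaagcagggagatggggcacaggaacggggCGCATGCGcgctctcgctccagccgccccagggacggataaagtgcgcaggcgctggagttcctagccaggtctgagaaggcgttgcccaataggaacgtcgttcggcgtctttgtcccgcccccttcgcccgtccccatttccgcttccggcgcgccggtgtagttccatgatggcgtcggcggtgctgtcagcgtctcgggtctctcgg
Cycs: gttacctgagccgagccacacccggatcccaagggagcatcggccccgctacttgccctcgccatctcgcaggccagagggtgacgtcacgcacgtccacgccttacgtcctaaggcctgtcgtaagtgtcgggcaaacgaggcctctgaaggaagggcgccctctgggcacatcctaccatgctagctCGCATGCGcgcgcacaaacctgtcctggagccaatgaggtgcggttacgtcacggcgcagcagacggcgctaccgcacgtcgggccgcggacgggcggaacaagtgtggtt
Uqcr11: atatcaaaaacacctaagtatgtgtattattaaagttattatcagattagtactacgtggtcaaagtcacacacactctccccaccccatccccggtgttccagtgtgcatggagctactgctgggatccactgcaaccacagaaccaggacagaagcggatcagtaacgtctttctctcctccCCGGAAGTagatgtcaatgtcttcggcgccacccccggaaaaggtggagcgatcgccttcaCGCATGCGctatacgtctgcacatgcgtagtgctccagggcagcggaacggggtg
Ndufs6: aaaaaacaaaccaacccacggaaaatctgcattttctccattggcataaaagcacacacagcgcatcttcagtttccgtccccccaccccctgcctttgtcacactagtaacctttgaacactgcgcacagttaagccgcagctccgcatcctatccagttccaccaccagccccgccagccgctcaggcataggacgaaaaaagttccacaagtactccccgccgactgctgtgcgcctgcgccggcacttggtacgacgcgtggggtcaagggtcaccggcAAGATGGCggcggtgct

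RefSeq windows were matched by symbol, or failing that by Ensembl ID, for 67 of the 86 genes, giving 72 windows. Some genes have more than 1 window, and shares are counted per window. The NRF1 letters were in 13.9% of these windows, against 1.87% of all 32851 mouse windows of the same length. The YY1 letters were in 12.5% of the list's windows against 2.75% of all, and the receptor letters in 11.1% against 4.72%. The ETS letters were in 6.94% against 3.89%, and at least 1 of the 4 motifs was in 38.9% against 12.5%. The median number of CpG pairs was 19 in the list's windows and 7 in all windows. Cox8b had 2 CpG pairs and none of the motifs, and Cox8a had 19 CpG pairs and 2 ETS matches. These matches describe the letters in each window and are no evidence of binding.

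The gene labels of the deposited tables were displaced by 1 gene, so each gene was read from the row of the gene before it in GENCODE M21 order. Read in this way, the 86 genes held 182635 of 7037513 counts, or 2.60%. Under their own labels they held 14400 counts, and at displacements of -2, -1 and 2 genes they held 4588, 19243 and 22002. Read in the same way, the cytosolic ribosomal protein genes held 19.9% of the counts, against 0.167% under their own labels. The contrast was weaker for the mitochondrially encoded protein genes, with 96647 counts read in this way and 19197 under their own labels. At displacements of -2, -1 and 2 genes they held 47226, 36039 and 4634. Counts summed over a gate were 2791584 in mAG+ and 1608630 in mKO2neg, against 1703263 in mKO2low and 934036 in mKO2high. The libraries shared 0 cell names. All 9 stem and progenitor markers had counts in every gate. The 10 G2/M genes, led by Top2a (topoisomerase II alpha), summed to 5069 CPM in mAG+ and 652 in mKO2neg, against 114 in mKO2low and 63.2 in mKO2high. The mKO2neg sum came largely from its deepest cell, which had 0.303% of its 210516 counts in these genes. That cell weighs on every mKO2neg sum over all counts. Lymphoid markers summed to 81.3 CPM in mAG+ and to between 0.587 and 7.49 CPM in the other gates. Such a count was found in 8 of 48 mAG+ cells and in 1 or 2 cells of each other gate. Of that list, Cd3e was at 0 in every gate. Endothelial and stromal markers summed to at most 5.73 CPM, with Cdh5 and Lepr at 0. Megakaryocyte and platelet markers, all 4 with counts, summed to 105 CPM in mAG+ and 213 in mKO2neg, against 179 in mKO2low and 380 in mKO2high. All 5 myeloid markers had counts, and their sum was 714 CPM in mAG+ and between 1079 and 1112 in the other gates. Most of that sum was Lyz2, with 590 CPM in mAG+ and 1044 in mKO2neg, against 1030 in mKO2low and 1058 in mKO2high. S100a8 ran the other way, with 117, 58.4, 41.7 and 52.5 CPM in this order. Mpo was found in 7 cells, Elane in 2 and Csf1r in 2. The part of these other cell types in the results below was not tested.

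The list took the largest share of counts in mAG+ cells and the smallest in mKO2high cells. It made up 2.81% of counts in mAG+ (95% interval 2.80 to 2.83), 2.59% in mKO2neg (2.56 to 2.61), 2.46% in mKO2low (2.44 to 2.49) and 2.19% in mKO2high (2.16 to 2.22). These exact Clopper-Pearson intervals do not overlap, but they cover counting error only and leave out differences between cells. Since the gates also differ in depth, every cell with enough counts was thinned to 5000. Single cells then held a median of 2.70% in the 45 mAG+ cells kept, 2.40% in the 43 mKO2neg cells, 2.36% in the 48 mKO2low cells and 2.14% in the 39 mKO2high cells. The quartiles were 2.48% and 3.04% in mAG+, 2.13% and 2.70% in mKO2neg, 1.98% and 2.62% in mKO2low, and 1.90% and 2.53% in mKO2high, so that the cells of the gates overlapped widely. At this depth a median of 52 members was detected in a mAG+ cell, 44 in a mKO2neg cell, 44.5 in a mKO2low cell and 41 in a mKO2high cell. Without thinning, these cells held medians of 2.70%, 2.42%, 2.34% and 2.16% in mAG+, mKO2neg, mKO2low and mKO2high, with medians of 73, 61, 63 and 56 members detected. These are shares of counts, and total RNA per cell was not measured.

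**Figure D1:**
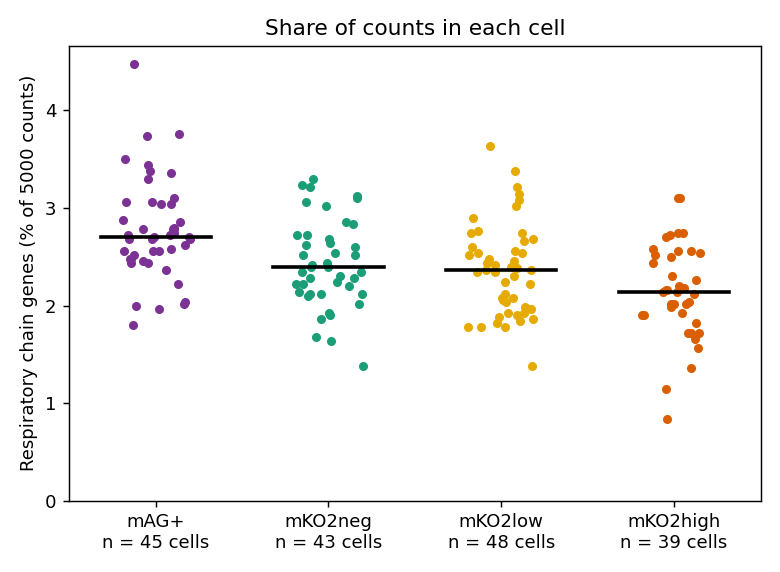
Percent of counts in the 86 respiratory chain genes in each cell after thinning to 5000 counts (points), with the gate median (black bar). The medians are 2.70% in mAG+ and 2.40% in mKO2neg, against 2.36% in mKO2low and 2.14% in mKO2high, and the clouds of cells overlap.

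Of the 86 genes, 80 had a count in some cell, 78 had at least 100 counts and 62 at least 1000. The 6 genes without a count were Cox7b2, Cox6a2, Cox8b, Cox8c, Ndufa4l2 and Atp5o. An empty row does not by itself show that its gene was silent, since reads can be lost or counted elsewhere. A gate with no count still allows 3 counts of its total, or up to 1.07 CPM in mAG+, up to 1.86 in mKO2neg, up to 1.76 in mKO2low and up to 3.21 in mKO2high. Among the 78 genes with at least 100 counts, 63 stayed within 2-fold over the 4 gates, and the median ratio of the highest to the lowest gate was 1.54. The highest gate was mAG+ for 45 of the 78, mKO2neg for 17, mKO2low for 10 and mKO2high for 6. The lowest gate was mAG+ for 5, mKO2neg for 15, mKO2low for 14 and mKO2high for 44. The 12 highest CPM means belonged to Cox4i1, Cox8a, Atp5b, Atp5a1, Cox6b1, Uqcrh, Atp5j, Atp5e, Cox6c, Cox6a1, Ndufa4 and Cox7c, so that complexes III, IV and V supplied all of them on this scale, which is not corrected for gene length.

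**Figure D2:**
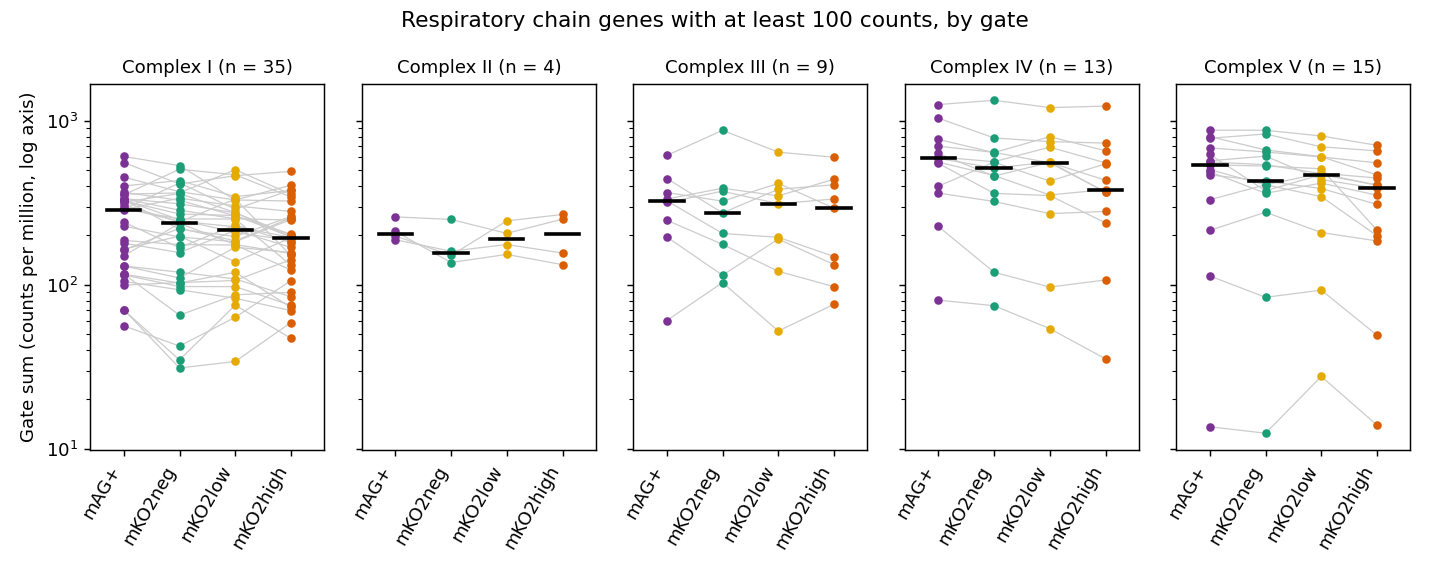
Gate sums in CPM (log axis) of the 76 genes of complexes I to V with at least 100 counts, each gene joined by a grey line over the 4 gates, with the median of each complex (black bar). Most lines run within 2-fold: 63 of the 78 genes with at least 100 counts do.

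Complex I, the NADH dehydrogenase, had 35 listed genes, and all were detected. Together they held 8868 CPM in mAG+ and 8291 in mKO2neg, against 7831 in mKO2low and 7161 in mKO2high. Ratios are given as log2 of the first gate's CPM over the second's, with exact conditional binomial 95% intervals in parentheses that cover counting error only. The summed mAG+ to mKO2neg log2 ratio was 0.10 (0.07 to 0.13), and that of mKO2low to mKO2high was 0.13 (0.09 to 0.17). The 7 core subunits, which carry the flavin and the iron-sulfur clusters, held 1438 CPM in mAG+ and 1522 in mKO2neg, with a log2 ratio of -0.08 (-0.15 to -0.01). The 28 accessory subunits held 7430 CPM in mAG+ and 6768 in mKO2neg, with a log2 ratio of 0.13 (0.10 to 0.17). Between mKO2low and mKO2high both groups were higher in mKO2low, the core at a log2 ratio of 0.08 (-0.03 to 0.18) and the accessory group at 0.14 (0.09 to 0.19).

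Single complex I genes differed in which gate was low. Ndufs6, an accessory subunit of the peripheral arm, had 306 CPM in mAG+ and 242 in mKO2neg, against 333 in mKO2low and 151 in mKO2high. It stood apart by its low level in mKO2high, with a log2 mKO2low to mKO2high ratio of 1.14 (0.87 to 1.42) that was 0.97 at 5000 counts per cell. Ndufb5, a membrane arm subunit, had 291, 252, 252 and 132 CPM in mAG+, mKO2neg, mKO2low and mKO2high. Its mKO2low to mKO2high log2 ratio was 0.93 (0.64 to 1.24), and 0.82 at 5000 counts per cell. Ndufs1, the largest core subunit, ran the other way, with 56.2 CPM in mAG+ and 42.3 in mKO2neg, against 63.4 in mKO2low and 106 in mKO2high. Its log2 ratio was -0.73 (-1.15 to -0.33) for mKO2low over mKO2high and -0.91 (-1.29 to -0.54) for mAG+ over mKO2high. At 5000 counts per cell these were -0.45 and -1.04. Ndufs3, another core subunit, was also highest in mKO2high, with 99.6 CPM in mAG+ and 103 in mKO2neg, against 106 in mKO2low and 142 in mKO2high.

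Within the library of mAG+ and mKO2neg cells, Ndufs5 had 70.6 CPM in mAG+ and 31.1 in mKO2neg, with a log2 ratio of 1.17 (0.73 to 1.66). Ndufb6 had 70.2 CPM in mAG+ and 34.8 in mKO2neg, with a log2 ratio of 1.00 (0.58 to 1.47), and Ndufa9, a subunit near the quinone site, had 116 and 65.3 CPM in these gates, at 0.83 (0.51 to 1.17). At 5000 counts per cell the ratios of these 3 accessory genes were 0.31, 0.59 and 0.21. Few counts were left there, a mean of 0.18 per mAG+ cell for Ndufs5, so these values are imprecise. With equal weight for each cell the ratios were 0.82, 0.83 and 0.38. For Ndufb6, 51.4% of the last 500 exon bases also lie in exons of Smim27, and reads of overlapping genes cannot be told apart without strand, which was not given in the sources used here. Ndufb10 (290 CPM in mAG+, 418 in mKO2neg) and Ndufa6 (354 CPM in mAG+, 507 in mKO2neg) had log2 ratios of -0.53 and -0.52. They were -0.11 and -0.13 at 5000 counts per cell, and -0.26 and -0.39 with equal weight for each cell. Over all counts Ndufa8 and Ndufa10 were also lower in mAG+ than in mKO2neg and were lower in mKO2low than in mKO2high. Ndufa8 had 163 CPM in mAG+ and 221 in mKO2neg, and 186 CPM in mKO2low and 256 in mKO2high. Ndufa10 had 165 CPM in mAG+ and 198 in mKO2neg, and 138 CPM in mKO2low and 194 in mKO2high. At 5000 counts per cell the log2 ratios for mAG+ over mKO2neg were -0.03 for Ndufa8 and 0.10 for Ndufa10, and those for mKO2low over mKO2high were -0.77 and -0.07. Ndufa2 had 607 CPM in mAG+ and 534 in mKO2neg, against 329 in mKO2low and 406 in mKO2high. Library and gate cannot be told apart in this difference. Ndufa1 had 130, 110, 170 and 157 CPM in mAG+, mKO2neg, mKO2low and mKO2high.

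Complex II, succinate dehydrogenase, is the only complex made wholly from nuclear genes and also serves the TCA cycle. Its 4 genes were all higher in mAG+ than in mKO2neg, where 52.8% of all genes were, with sums of 859 and 699 CPM and a log2 ratio of 0.30 (0.19 to 0.40). Sdhc, a membrane anchor, had the widest difference. It had 212 CPM in mAG+ and 137 in mKO2neg, with a log2 ratio of 0.63 (0.40 to 0.86). Sdha, the flavoprotein, had 199 CPM in mAG+ and 151 in mKO2neg, at 0.40 (0.18 to 0.62). Sdhd, the other anchor, had 188 and 160 CPM in these gates and Sdhb, the iron-sulfur subunit, 260 and 251. The log2 ratio of Sdhb was 0.05 (-0.13 to 0.23), and between -0.17 and 0.52 under the alternatives. Between mKO2low and mKO2high the complex showed no common direction. Its sum was 781 CPM in mKO2low and 809 in mKO2high, with a log2 ratio of -0.05 (-0.18 to 0.08). Sdha had 245 CPM in mKO2low and 269 in mKO2high, and Sdhb 206 and 252. Sdhc had 153 CPM in mKO2low and 133 in mKO2high, and Sdhd 176 and 156. Sdha was thus highest in mKO2high and lowest in mKO2neg.

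Complex III, which takes electrons from ubiquinol to cytochrome c, had 9 genes and sums of 2909 CPM in mAG+ and 2836 in mKO2neg, against 2663 in mKO2low and 2532 in mKO2high. Its log2 ratio was 0.04 (-0.02 to 0.09) for mAG+ over mKO2neg and 0.07 (0.00 to 0.14) for mKO2low over mKO2high. Single subunits differed by more than the sum. Uqcrfs1, the Rieske iron-sulfur protein, had 248 CPM in mAG+ and 177 in mKO2neg, against 121 in mKO2low and 97.4 in mKO2high, the widest spread of the 78 genes with at least 100 counts, at 2.54-fold. Its mAG+ to mKO2high log2 ratio was 1.34 (1.03 to 1.68), and 0.89 at 5000 counts per cell. Cyc1, cytochrome c1, had 196 CPM in mAG+ and 114 in mKO2neg, and 190 CPM in mKO2low and 133 in mKO2high. Its log2 ratios were 0.77 (0.53 to 1.03) and 0.52 (0.22 to 0.83) within the libraries. Uqcrh, the hinge protein between cytochrome c1 and cytochrome c, had the highest CPM of the complex and was highest in mKO2neg, with 616 CPM in mAG+ and 877 in mKO2neg, against 645 in mKO2low and 601 in mKO2high. Uqcrc2, a core protein, had 60.5 CPM in mAG+ and 103 in mKO2neg, against 52.3 in mKO2low and 76.0 in mKO2high. All of its last 500 exon bases also lie in exons of Pdzd9, so its counts are uncertain, and its mAG+ to mKO2neg log2 ratio of -0.77 was -0.14 at 5000 counts per cell.

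Cytochrome c, encoded by Cycs, carries electrons between complexes III and IV and is also a trigger of apoptosis when released. It had 97.8 CPM in mAG+ and 83.9 in mKO2neg, against 82.8 in mKO2low and 48.2 in mKO2high. Over all counts the low gate was mKO2high, where 14 of 48 cells had a count. The log2 ratio was 0.77 (0.29 to 1.30) for mKO2low over mKO2high and 0.22 (-0.08 to 0.53) for mAG+ over mKO2neg. At 5000 counts per cell these were 0.07 and 0.80. Few counts were left there, with means of 0.27 per cell in mKO2low and 0.26 in mKO2high. With equal weight for each cell the 2 ratios were 0.44 and 0.07.

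Complex IV, cytochrome c oxidase, had 20 listed genes. They summed to 7795 CPM in mAG+ and 6874 in mKO2neg, against 6694 in mKO2low and 5955 in mKO2high, with log2 ratios of 0.18 (0.15 to 0.21) for mAG+ over mKO2neg and 0.17 (0.12 to 0.22) for mKO2low over mKO2high. Cox4i1, the largest nuclear subunit, was nearly level. It had 1258 CPM in mAG+ (95% interval 1217 to 1300), 1337 in mKO2neg (1281 to 1394), 1206 in mKO2low (1154 to 1259) and 1231 in mKO2high (1161 to 1304), the narrowest spread of the 78 genes at 1.11-fold. Cox8a, the smallest subunit, had 1041 CPM in mAG+ and 787 in mKO2neg, against 748 in mKO2low and 732 in mKO2high, and so was highest in mAG+. Its log2 ratio was 0.40 for mAG+ over mKO2neg and 0.07 for mKO2neg over mKO2low over all counts, and 0.19 and 0.39 at 5000 counts per cell. Cox6a1 was low in mKO2high, with 702, 643, 555 and 368 CPM in mAG+, mKO2neg, mKO2low and mKO2high and a log2 mKO2low to mKO2high ratio of 0.59 (0.41 to 0.77). Cox7c had 591, 515, 561 and 367 CPM in the same order of gates and a ratio of 0.61 (0.43 to 0.79). Ndufa4, once placed in complex I and now counted as a subunit of complex IV, had 634 CPM in mAG+ and 461 in mKO2neg, and 558 CPM in mKO2low and 435 in mKO2high. Cox6c had 603 and 564 CPM in mAG+ and mKO2neg, and 692 and 555 CPM in mKO2low and mKO2high. For Cox6c, 50% of the last 500 exon bases also lie in exons of Vps13b.

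Several complex IV subunits have isoforms used in other tissues, and the common isoform carried nearly all counts of its set here. Per kilobase of exon, Cox4i1 averaged 812 CPM over the gates and Cox4i2, the isoform known from lung and low oxygen, 17.3. Cox4i2 had 89 counts in 19 cells, and its log2 ratio was -0.90 (-1.995 to 0.09) for mKO2low over mKO2high and -0.72 (-1.63 to 0.17) for mAG+ over mKO2high. Cox8a averaged 1336 CPM per kilobase, and its heart and muscle form Cox8b and testis form Cox8c had no count. Cox6a1 averaged 808 CPM per kilobase while Cox6a2, the heart and muscle form, had none. Cox7b averaged 255 CPM per kilobase and Cox7b2 had none. Cox7a1, the heart and muscle form of Cox7a2, had 29 counts in 5 cells. The exception was Cox6b2, known as the testis form. On this scale it averaged 124 CPM per kilobase, against 1014 for Cox6b1, and had 1091 counts in 106 cells.

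Cox6b2 was also among the genes that differed most between mAG+ and mKO2neg. It had 227 CPM in mAG+ and 119 in mKO2neg, against 96.9 in mKO2low and 107 in mKO2high, so that mAG+ was high and the other gates were close together. The log2 ratio for mAG+ over mKO2neg was 0.93 (0.69 to 1.17), and 1.31 at 5000 counts per cell. Over all counts, 41, 30, 21 and 14 of 48 cells in mAG+, mKO2neg, mKO2low and mKO2high had a Cox6b2 count. At 5000 counts 57.8% of 45 mAG+ cells had a Cox6b2 count, against 32.6% of 43 mKO2neg, 25% of 48 mKO2low and 17.9% of 39 mKO2high cells. Its partner Cox6b1 had 772 CPM in mAG+ and 641 in mKO2neg, and 801 CPM in mKO2low and 657 in mKO2high. Cox7a2 was highest in mAG+ and lowest in mKO2high, with 551, 361, 351 and 239 CPM in mAG+, mKO2neg, mKO2low and mKO2high. Cox7a2l, a paralog that is known to help complexes III and IV associate and that has a shortened protein in C57BL/6 mice, ran opposite to it within both libraries. It had 400 CPM in mAG+ and 560 in mKO2neg, and 430 CPM in mKO2low and 547 in mKO2high. The log2 ratios of Cox7a2 were 0.61 (0.47 to 0.75) for mAG+ over mKO2neg and 0.55 (0.33 to 0.78) for mKO2low over mKO2high, and those of Cox7a2l were -0.49 (-0.61 to -0.36) and -0.35 (-0.51 to -0.18).

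**Figure D3:**
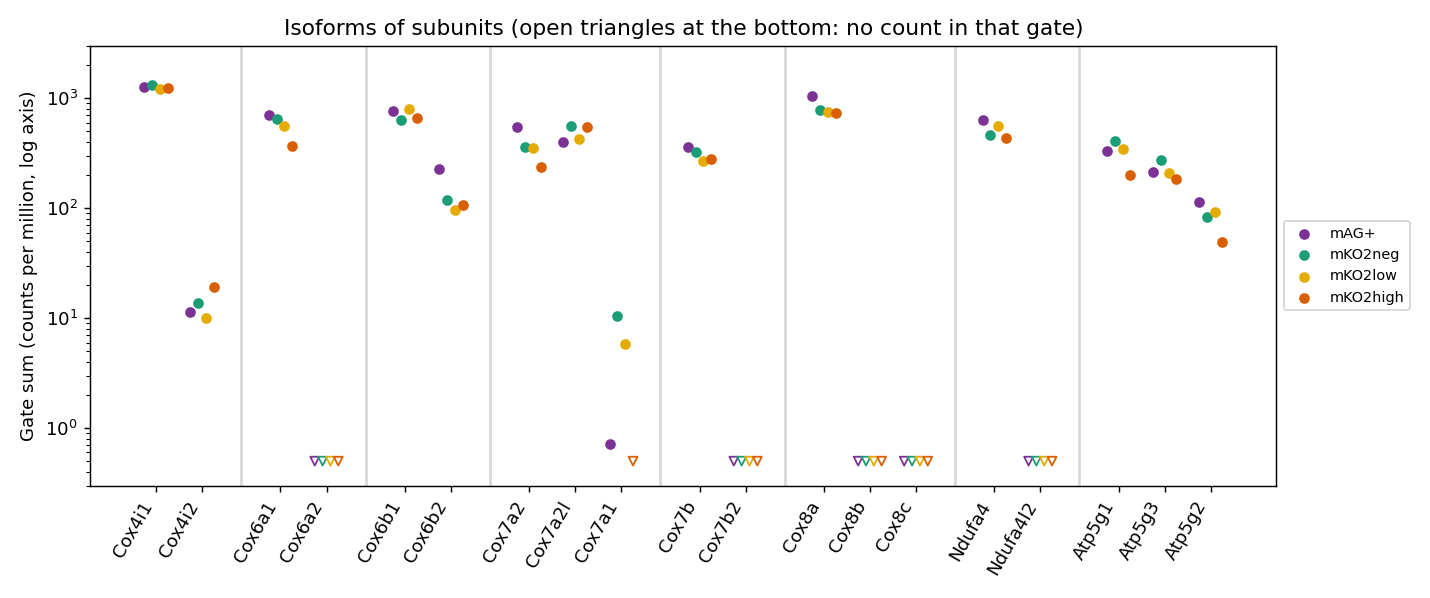
Gate sums in CPM (log axis) of subunits with more than 1 isoform, with a point for each of the 4 gates and open triangles at the bottom where a gate had no count. Cox6a2, Cox7b2, Cox8b, Cox8c and Ndufa4l2 have no count in any gate, Cox6b2 lies between 96.9 and 227 CPM, and Cox7a2 and Cox7a2l run opposite ways.

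Complex V, the ATP synthase, had the highest summed mKO2low to mKO2high ratio of the 5 complexes over all counts, but not at 5000 counts per cell. Its 16 listed genes summed to 7581 CPM in mAG+ and 7056 in mKO2neg, against 6566 in mKO2low and 5361 in mKO2high. Over all counts the 15 genes with enough counts were all higher in mKO2low than in mKO2high, where 52.2% of all genes were, at a summed log2 ratio of 0.29 (0.24 to 0.34). At 5000 counts per cell 10 of 14 were higher, and Atp5a1, Atp5e, Atp5g2 and Atp5k were lower. The summed log2 ratio was then 0.15, against 0.20 for complex IV and 0.15 for complex I. For mAG+ over mKO2neg, 11 of 15 were higher, where 52.8% of all genes were, and the summed log2 ratio was 0.10 (0.07 to 0.14). The 5 genes of the catalytic F1 head summed to 3063 CPM in mKO2low and 2775 in mKO2high, with a log2 ratio of 0.14 (0.07 to 0.21). The stalk and membrane genes summed to 3503 CPM in mKO2low and 2586 in mKO2high, with a log2 ratio of 0.44 (0.37 to 0.51). Both group ratios were taken over all counts only. The ratio of Atp5mpl, in the second group, was 1.24 there and 0.38 at 5000 counts per cell. With labels read as displaced, the summed ratio of complex V was above 0 in 11 of 11 alternatives, and the lowest was 0.15.

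Among the F1 genes, Atp5b, the catalytic beta subunit, had 878 CPM in mAG+ and 877 in mKO2neg, against 809 in mKO2low and 710 in mKO2high. Atp5a1, the alpha subunit, had 784, 832, 695 and 656 CPM in the same order and Atp5e, the epsilon subunit, 684, 647, 603 and 555. All 3 were within 1.27-fold over the gates. Atp5mpl, a small membrane subunit, had 540 CPM in mAG+ and 530 in mKO2neg, against 511 in mKO2low and 215 in mKO2high. Only mKO2high was low, and the log2 ratio for mKO2low over mKO2high was 1.24 (1.02 to 1.48), the highest of the genes with at least 100 counts. It was 0.38 at 5000 counts per cell and 0.81 with equal weight for each cell, so that its size depended on how cells were weighted. Atp5j, the stalk subunit F6, had 803, 665, 605 and 468 CPM in mAG+, mKO2neg, mKO2low and mKO2high. Atp5g1, Atp5g2 and Atp5g3 encode the same mature c subunit of the rotor ring, and whether any reads were shared between these genes was not tested. Atp5g1 had 331, 408, 345 and 199 CPM in mAG+, mKO2neg, mKO2low and mKO2high. Atp5g3 had 215, 277, 208 and 185 CPM in that order and Atp5g2 113, 83.9, 92.8 and 49.2 CPM. The log2 mAG+ to mKO2neg ratio of Atp5g3 was -0.37 over all counts, 0.02 at 5000 counts per cell and -0.001 with equal weight for each cell. For Atp5g1 these were -0.30, 0.09 and -0.31. The log2 mKO2low to mKO2high ratio of Atp5g2 was 0.90 (0.43 to 1.42) over all counts and -0.62 at 5000 counts per cell, where few counts were left. Atp5l had 118 counts, and near-identical pseudogene copies of it exist, whose reads could have been counted apart or lost. Atp5o, the stalk subunit OSCP, had none. Whether its reads were lost or counted in another row was not tested, so the gene cannot be called silent.

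Within the library of mAG+ and mKO2neg cells, the list was slightly higher in mAG+ than in mKO2neg. Of 80 genes with at least 10 counts over both gates, 57 were higher in mAG+, or 71.2%, against 52.8% of all 12115 genes measured. Of the list 2 were at least 2-fold higher and 1 at least 2-fold lower. The background was 21.2% higher and 14.6% lower over all genes, many of which have few counts, and 6.99% and 3.14% over the 1145 protein-coding genes with at least 1000 counts. The 2 higher ones were Ndufs5 and Ndufb6, and the lower one was Cox7a1, with 2 counts in mAG+ and 17 in mKO2neg, all 17 in 1 cell. The median log2 ratio was 0.18 over the list and 0.06 over all genes, and -0.05 over those abundant protein-coding genes, which are closer to the list in abundance.

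Within the library of mKO2 cells, the list was slightly higher in mKO2low than in mKO2high. Of 80 measured genes 55 were higher, against 52.2% of all 10901 genes. Of the list 3 were at least 2-fold higher (background 19.6%, and 4.21% of abundant protein-coding genes) and 0 at least 2-fold lower (background 15%, and 1.14% of abundant ones). They were Atp5mpl, Ndufs6 and Cox7a1. Cox7a1 had 5.87 CPM in mKO2low and no count in mKO2high, where up to 3.21 CPM is allowed, so its 2-fold difference is not established. The median log2 ratio was 0.20 over the list, 0.05 over all genes and 0.02 over the abundant protein-coding genes. Among genes with at least 100 counts over both gates, the lowest in mKO2low relative to mKO2high were Ndufs5 at -0.78 (-1.35 to -0.23), Ndufs1, Uqcrc2 at -0.53 (-1.01 to -0.07) and Ndufa10 at -0.49 (-0.78 to -0.20). For Ndufs5 the levels were 34.1 CPM in mKO2low and 58.9 in mKO2high. Its ratio was -0.07 at 5000 counts per cell, where few counts were left, and -0.45 with equal weight for each cell.

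**Figure D4:**
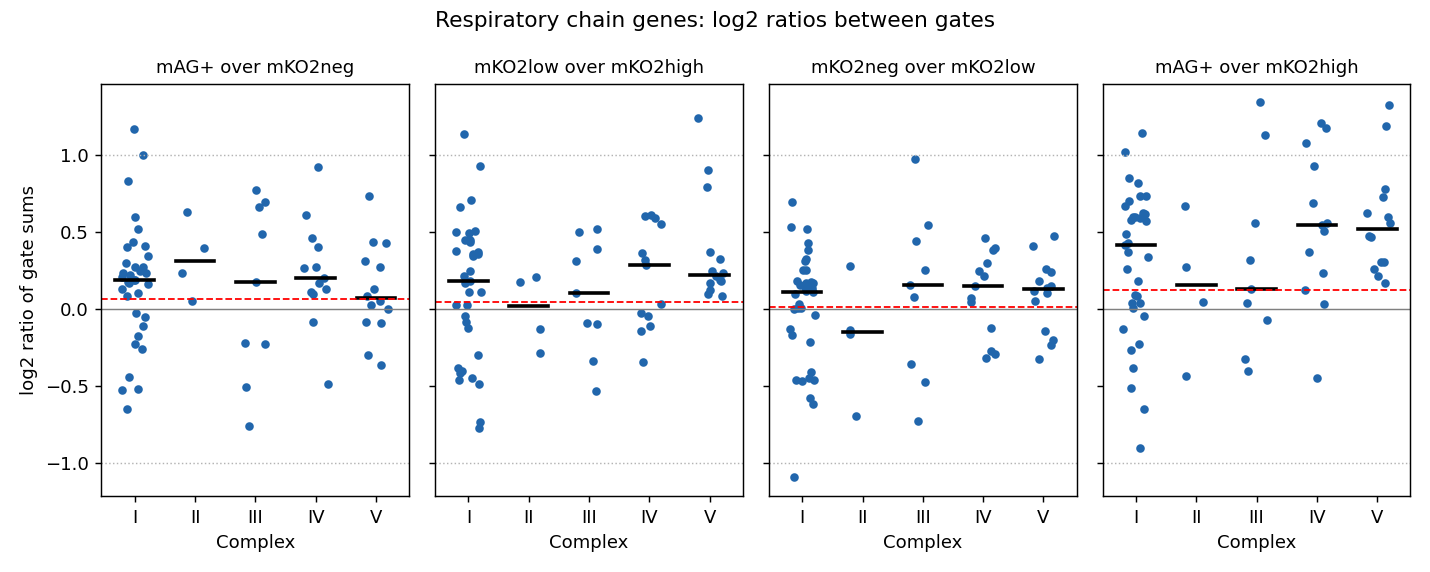
Log2 ratios of gate sums for genes of complexes I to V with at least 100 counts over both gates, by comparison, with the complex median (black bar), the median of all genes (red dashed line) and 2-fold differences (dotted lines). All complex V points lie above 0 for mKO2low over mKO2high over all counts (10 of 14 at 5000 counts per cell), and the mAG+ over mKO2high panel holds most of the points past 2-fold.

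The other comparisons join gates of different libraries, whose part cannot be told apart from that of the gates, and they share gates with those above. For mKO2neg over mKO2low, 53 of 80 members were higher, against 50.5% of all genes, and the median log2 ratio was 0.11 against 0.01 over all 11375 genes. Of the list 0 were at least 2-fold higher (background 15.3%, and 3.67% of abundant protein-coding genes) and 2 at least 2-fold lower (background 16.7%, and 0.873% of abundant ones), Ndufb6 at -1.10 (-1.59 to -0.65) and Atp5l, named after its value was seen, at -1.11. The median became -0.03 at 5000 counts per cell and 0.03 with equal weight for each cell, so the list had no settled direction between these gates. It was -0.02 when the cell with the most counts of each gene was left out of each gate. Gate totals were kept whole in that setting, which by construction lowers most a gate where 1 cell holds much of a gene's counts. Among genes with at least 100 counts over both gates, the highest ratios were those of Uqcrc2 at 0.97, Ndufa2 at 0.70, Uqcrfs1 at 0.54 and Ndufb10 at 0.53. The ratio of Uqcrfs1 was -0.55 at 5000 counts per cell and 0.03 with equal weight for each cell. At the other end, Cyc1 had -0.73 (-0.04 with equal weight for each cell), Sdha -0.70 and Ndufa1 -0.62.

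For mAG+ over mKO2high, the gates farthest apart in their share, 64 of 79 members were higher, against 54.3% of all 11849 genes. Of those 79, 10 were at least 2-fold higher (background 26.2%, and 10.2% of abundant protein-coding genes) and 0 at least 2-fold lower (background 17.1%, and 6.38% of abundant ones). The median log2 ratio was 0.42 over the list, 0.12 over all genes and 0.02 over the abundant protein-coding genes. By complex the summed ratios were 0.50 for complex V, 0.39 for complex IV, 0.31 for complex I, 0.20 for complex III and 0.09 for complex II. Among genes with at least 100 counts over both gates, Uqcrfs1 was highest, then Atp5mpl at 1.32 (1.11 to 1.55), Cox7a2 at 1.21 (1.00 to 1.42) and Atp5g2 at 1.19 (0.75 to 1.68). At 5000 counts per cell these 4 were 0.89, 0.69, 0.81 and 0.17. The lowest of them were Ndufs1, Ndufa8 at -0.65 (-0.88 to -0.42), Ndufs3 at -0.51 (-0.82 to -0.21) and Cox7a2l at -0.45 (-0.60 to -0.30).

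Other mitochondrial gene lists had their own values in these comparisons. Of all genes measured, 52.8% were higher in mAG+ than in mKO2neg and 52.2% in mKO2low than in mKO2high. Most of the counts below lie near these shares. Of 43 measured assembly factors, which build the complexes, 21 were higher in mAG+ than in mKO2neg, with a median log2 ratio of -0.04, and 21 of 42 were higher in mKO2low than in mKO2high, with a median of -0.03. Of the 18 TCA cycle genes, 5 were higher in mAG+ than in mKO2neg, with a median of -0.14, and 9 were higher in mKO2low than in mKO2high. Among them Idh3g, of isocitrate dehydrogenase, had 399 CPM in mAG+ and 359 in mKO2neg, while Suclg1, of succinyl-CoA ligase, had 206 and 270. Carriers, porins and import genes had 8 of 18 higher in mAG+ than in mKO2neg and 10 of 18 higher in mKO2low than in mKO2high. One of them, the ATP/ADP carrier Slc25a5, had 464 CPM in mAG+ and 523 in mKO2neg, against 832 in mKO2low and 494 in mKO2high. Mitochondrial ribosomal proteins had 36 of 75 higher in mAG+ than in mKO2neg and 38 of 75 higher in mKO2low than in mKO2high, with medians of -0.06 and 0.03. Of the regulators of mitochondrial biogenesis, 7 of 14 were higher in mAG+ than in mKO2neg and 9 of 14 in mKO2low than in mKO2high. Their medians were -0.09 and 0.90. For mKO2low over mKO2high, 7 were at least 2-fold higher (background 19.6%) and 1 at least 2-fold lower (background 15%), though several of them have few counts. These regulators had no common order of gates, and 9 of 15 were higher in mAG+ than in mKO2high, where 54.3% of all genes were. Ssbp1 had 123 CPM in mAG+ and 168 in mKO2neg, against 169 in mKO2low and 212 in mKO2high. Nrf1 ran the other way, with 66.6 CPM in mAG+ and 44.8 in mKO2neg, against 18.8 in mKO2low and 8.56 in mKO2high. Tfam, which packages mitochondrial DNA, had 61.6, 58.4, 79.3 and 32.1 CPM in the same order.

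The mitochondrially encoded partners did not have the same order of gates as the nuclear list. Their protein genes held 1.28% of counts in mAG+ and 1.18% in mKO2neg, against 1.62% in mKO2low and 1.53% in mKO2high. One mKO2high cell had 17.7% of its 16304 counts in these genes and held 20.1% of the gate's counts of them. Without that cell, an alternative chosen after seeing the data, mKO2high fell to 1.25%, so that mKO2low was high and the other gates were close together. The median over cells at 5000 counts was 1.24% in mAG+ and 1.12% in mKO2neg, against 1.62% in mKO2low and 1.14% in mKO2high. Only 8 of the 13 genes had enough counts to be measured, and the displacement was less clear for this list, so its levels are less certain. All 8 were lower in mKO2neg than in mKO2low, where 50.5% of all genes were higher in mKO2neg. The summed log2 ratio of the list was -0.46 (-0.49 to -0.43). Within the libraries the summed ratios were 0.12 (0.10 to 0.15) for mAG+ over mKO2neg and 0.08 (0.05 to 0.11) for mKO2low over mKO2high, the second of which was 0.37 (0.34 to 0.41) without that cell and -0.05 (-0.12 to 0.02) with it at 5000 counts per cell. mt-Cytb, the mitochondrially encoded subunit of complex III, had 4121 CPM in mAG+ and 3773 in mKO2neg, against 6054 in mKO2low and 4887 in mKO2high. mt-Co1, of complex IV, had 1376, 1521, 1600 and 1318 CPM in this order. Cytosolic ribosomal protein genes, the most abundant list, ran against the respiratory genes in 1 library and with them in the other. Of 80 measured, 10 were higher in mAG+ than in mKO2neg, against 52.8% of all genes, with a summed log2 ratio of -0.26. In the other library 75 were higher in mKO2low than in mKO2high, against 52.2% of all genes, at 0.23. They take up a large share of all counts, and their part in the CPM of other genes was not tested.

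From cell to cell, the share of the list varied with that of the mitochondrial ribosomal proteins in 3 of the 4 gates. Spearman's rho between these shares at 5000 counts was 0.46 for the 45 cells of mAG+, 0.45 for the 43 of mKO2neg, 0.48 for the 48 of mKO2low and 0.13 for the 39 of mKO2high. With the mitochondrially encoded genes rho was 0.23, 0.22, 0.16 and 0.02 in the same order. With the cell's total counts before thinning it was 0.19, 0.18, 0.35 and 0.07. With G2/M genes it was -0.32 in mAG+ cells. The cells of a gate share a library and a sort, these are correlations of shares of 1 total, and they are given as a description only.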

How the data were processed

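Per the labels' protocols, cDNA of single cells was made by a Smart-seq2 variant that enriches transcript 3′ ends. The authors deposited integer counts for each gene row in each cell, without normalization. The submitters' processing notes name HISAT2, HTSeq 0.11.3, Seurat and mm10. Not given in the sources used here were the annotation release, strand setting and use of molecular identifiers. Of 53378 gene rows, 53273 were found by ID in GENCODE M21 (same assembly), and 105 rows with 0.222% of counts were not. Columns of cells left unused numbered 0. Members were read at a displacement of 1 gene among IDs in the tables; for 4 members the preceding row is not the adjacent annotated gene.

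Counts were summed over each gate and divided by the gate's total (CPM). Log2 ratios had a prior count of 1, in proportion to each total, added for genes with at least 10 counts over both gates. Intervals are exact at 95% (conditional binomial for ratios, Poisson for CPM, Clopper-Pearson for shares) and cover counting error only, since reads may not be independent molecules. The floor is 3 counts. Exon lengths are the union of annotated exons, and 29 members share some exon bases with other genes. Because reads come mainly from 3′ ends, CPM per kilobase is an approximate scale for comparing genes. For equal depth, cells were thinned to 5000 counts, leaving out 3 mAG+, 5 mKO2neg, 0 mKO2low and 9 mKO2high cells. Ratios of single genes at 5000 counts per cell rest on far fewer counts and are given without an interval. No doublet caller was run on these singly sorted cells. The ratio code was tested on simulated data. Tools were Python 3.11.15, numpy 2.4.6, pandas 2.3.3, scipy 1.17.1, matplotlib 3.10.9, R 4.3.3, edgeR 4.0.16 (TMM factors only) and DESeq2 1.42.0 (size factors only).

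The members, lists and named genes were chosen with earlier results of these data known. Named members were the 12 with the highest mean CPM, the 4 highest and 4 lowest log2 ratios in each comparison among members with at least 100 counts over both gates, complex II, Cyc1, Cycs, isoform sets and members without counts. Promoters were chosen after their values were seen. Some values are not reported here.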

Additional observations from a re-analysis of the deposited data

How the results depend on the processing

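Over the alternatives other than the deposited labels as they stand, the list's median log2 ratio stayed above 0 in 11 of 11 for mAG+ over mKO2neg (0.17 to 0.28), for mKO2low over mKO2high (0.18 to 0.27) and for mAG+ over mKO2high (0.37 to 0.58), and in 9 of 11 for mKO2neg over mKO2low. There it was -0.033 at 5000 counts per cell and -0.024 with the top cell of each gene left out of each gate. Leaving out that top cell also moved the median to 0.28 for mAG+ over mKO2neg and 0.58 for mAG+ over mKO2high. Gate totals were kept whole in that setting, so by construction it lowers most a gate where 1 cell holds much of a gene's counts. What else lay behind these moves was not tested.

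Shares of counts moved by more than counting error in several settings, and mAG+ stayed highest and mKO2high lowest in each of these except the deposited labels. They are given in the order mAG+, mKO2neg, mKO2low, mKO2high. They were 2.75%, 2.46%, 2.37% and 2.12% with equal weight for each cell, and 2.78%, 2.43%, 2.37% and 2.15% at 5000 counts per cell. With the top cell of each gene left out they were 2.54%, 2.12%, 2.16% and 1.82%. In that setting the gate totals were kept whole, so these values could only fall and are not shares of the remaining counts. When each gate's deepest cell was dropped they were 2.79% in mAG+ and 2.49% in mKO2neg. With the preceding gene taken from the whole annotation they were 2.78% in mAG+, 2.54% in mKO2neg and 2.42% in mKO2low. Without cells that had a lymphoid marker count, an alternative chosen after seeing the data, they were 2.87% in mAG+ and 2.23% in mKO2high.

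Read under the deposited labels, which the displacement sets aside, the list's rows hold other genes' counts. The shares were then 0.196%, 0.206%, 0.233% and 0.177%. The median log2 ratio was -0.016 for mAG+ over mKO2neg (18 members higher), 0.65 for mKO2low over mKO2high (25 higher) and -0.25 for mKO2neg over mKO2low (13 higher), and 24 were higher for mAG+ over mKO2high. Under these labels Cox7a1 was at 0.28 and Ndufs5 at -0.046 for mAG+ over mKO2neg, Ndufs6 at -0.054 for mKO2low over mKO2high and -0.45 for mAG+ over mKO2high, and Cox7a2 at -0.65 for mAG+ over mKO2high.

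TMM and size factors, the other count filters and the cell filter left every list median and count of higher members close to the values reported. Of 1967 values of named members under the alternatives, 1698 lay within the counting interval of the reported value. Genes with few counts, such as Cox4i2, have wide counting intervals. No paired analysis was possible because each gate is 1 sample.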
